A study of Mus musculus with 46 samples.

Results

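The genes described here are the nuclear genes of oxidative phosphorylation: every gene of the deposited mouse count table whose symbol begins with Nduf followed by a, b, c, s or v, with Cox4 to Cox8, with Uqcr or with Atp5, together with Sdha, Sdhb, Sdhc and Sdhd. The rule is a match of names, and it was set with earlier results of these data known. It gave 96 of the 19521 genes in the table. Of the 96 genes, 47 belong to complex I, 4 to complex II, 8 to complex III, 20 to complex IV and 17 to complex V, with 10 assembly factors among them. RNA was sequenced from sorted primary T cells of C57BL/6 mice that were either wild type or carried a knock-in named hCD2-LMO2, which keeps the gene LMO2 on in T cells. The name of the allele refers to human CD2, whose control elements are commonly used to drive genes in the T lineage. The thymic populations were total double-negative cells (DN), which carry neither CD4 nor CD8, and 2 subsets of them by label, DN1 and DN3. They also included double-positive cells, written DP, and the later single-positive cells that keep either CD4 (CD4SP) or CD8 (CD8SP). Each had 3 libraries per genotype, except that wild-type DN1 had 1. CD4 and CD8 T cells of the spleen had 3 libraries each, from mice with the LMO2 allele only. The labels give no age or sex and do not say whether the libraries of a group came from separate animals, so p values measure the spread between these libraries, which may be technical.

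Oxidative phosphorylation makes most of the ATP of a resting cell. Complex I takes electrons from NADH and complex II takes them from succinate. Complex III passes them to cytochrome c, complex IV passes them on to oxygen, and the ATP synthase, complex V, uses the proton gradient that the other complexes build. Each complex except complex II mixes a few subunits encoded in mitochondrial DNA with many encoded in the nucleus, and a set of assembly factors brings them together. Some subunits have a second gene that is used in other tissues, such as Cox6a2 and Cox7a1 in muscle, Cox6b2 and Cox8c in testis and Cox4i2 in lung. In the thymus, DN3 cells that have rearranged a T-cell receptor beta chain divide and grow, most DP cells are small and quiescent, and single-positive cells are the selected, maturing T cells. The table holds no mitochondrially encoded gene, so only the nuclear side of each complex is described.

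Nuclear respiratory factor 1 and the ETS factor GABP are the textbook activators of these genes, so the promoters of the members were searched for their motifs. A promoter here is the window from 250 bases before to 50 bases after the transcription start, from RefSeq on GRCm38.p6. A sequence was listed for 77 of the 96 members. The palindrome of nuclear respiratory factor 1, GCGCA followed by its reverse complement, was present in 7 of these 77 members, or 9.09%, and in 1.47% of 17491 protein-coding genes over windows of the same length. The ETS core CCGGAAG was present on either strand in 18 of 77 members, or 23.4%, against 12.9% of protein-coding genes. The shorter core GCATGC, which lies inside the palindrome, was present in 19.5% against 9.22%, and the CCAAT box in 44.2% against 42.3%. The promoters of 4 members on which the results turn are printed from 5′ to 3′ with the palindrome of nuclear respiratory factor 1 in capitals. The matches describe the letters of these windows and not a bound site. Ndufaf4 is shown because it had the largest difference between wild-type DN3 and DP of the called members. Atp5g1 and Atp5g2 are shown because they encode the same mature protein and varied differently with stage. Cox6b2 is shown because it had the largest genotype difference among the called members. Ndufaf4 and Atp5g2 each hold 1 palindrome, while the windows of Atp5g1 and Cox6b2 hold neither the palindrome nor the ETS core.
Ndufaf4 promoter, chr4:24897833-24898132, plus strand: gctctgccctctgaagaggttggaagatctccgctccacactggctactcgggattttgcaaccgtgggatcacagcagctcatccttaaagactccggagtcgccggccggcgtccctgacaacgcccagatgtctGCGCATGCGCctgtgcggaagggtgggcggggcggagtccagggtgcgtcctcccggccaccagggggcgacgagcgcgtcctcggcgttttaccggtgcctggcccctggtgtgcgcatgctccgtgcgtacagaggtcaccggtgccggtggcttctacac
Atp5g1 promoter, chr11:96075582-96075881, minus strand: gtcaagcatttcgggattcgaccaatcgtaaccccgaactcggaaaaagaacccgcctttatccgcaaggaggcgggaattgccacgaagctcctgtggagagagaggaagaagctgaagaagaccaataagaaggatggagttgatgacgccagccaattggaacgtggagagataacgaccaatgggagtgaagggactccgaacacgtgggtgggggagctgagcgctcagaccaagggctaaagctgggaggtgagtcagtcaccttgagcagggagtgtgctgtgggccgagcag
Atp5g2 promoter, chr15:102670998-102671297, minus strand: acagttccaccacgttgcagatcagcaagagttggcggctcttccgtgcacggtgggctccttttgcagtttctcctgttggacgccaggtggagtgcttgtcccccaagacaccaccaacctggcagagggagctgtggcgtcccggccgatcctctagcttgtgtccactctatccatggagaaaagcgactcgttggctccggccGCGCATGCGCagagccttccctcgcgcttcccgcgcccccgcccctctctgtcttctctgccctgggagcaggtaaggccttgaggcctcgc
Cox6b2 promoter, chr7:4753045-4753344, minus strand: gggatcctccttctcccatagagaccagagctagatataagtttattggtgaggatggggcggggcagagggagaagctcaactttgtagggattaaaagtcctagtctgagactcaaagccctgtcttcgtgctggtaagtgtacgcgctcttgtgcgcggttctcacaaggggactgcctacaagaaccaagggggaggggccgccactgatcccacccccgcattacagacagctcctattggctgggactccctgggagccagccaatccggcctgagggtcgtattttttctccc

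Library totals ran from 17211426 to 28842773 reads, and the members took between 0.505% and 1.19% of them. Levels of a gene across libraries are given as CPM, read counts relative to library size, on one scale over the 40 libraries. Differences are log2 fold changes ± SE, and a gene is said to have risen or fallen where its Benjamini-Hochberg adjusted p in edgeR's quasi-likelihood test was under 0.05. In bulk samples, fewer cells of a type and less RNA per cell cannot be told apart. Lmo2 was the check of the labels: it read 0.395 CPM in the library labelled transgenic DP 3, against 78.8 and 70.0 CPM in the other transgenic DP libraries. That library was most like wild-type DP 1 across genes (r = 0.983 over log expression). The library labelled transgenic CD4SP 1 had a summed level of the CD4-lineage markers of 222 CPM, against 1908 to 2438 in wild-type CD4SP. The library labelled transgenic CD4SP 2 had DP markers at 14733 CPM and was most like transgenic CD8SP 3. In the library labelled transgenic splenic CD8 1 the CD8-lineage markers summed to 904 CPM, against 3575 and 3736 in the others. Red-cell genes reached 22003 CPM in wild-type DN 3 and 59222 in transgenic splenic CD4 3. Counts of called members that rest on the libraries named here are given with and without them. In the library labelled transgenic CD8SP 3, DP markers summed to 11846 CPM and CD4-lineage markers to 1410.4, against 4082 and 2593, and 155 and 169.6, in the other transgenic CD8SP libraries. The only wild-type DN1 library read 31.7 CPM of Lmo2, near the 36.4, 38.7 and 45.1 CPM of transgenic DN1, so Lmo2 does not check the labels there. CD4-lineage markers summed to 654 to 934 CPM in transgenic and 752 in wild-type DN1, against 6.63 to 70.9 in total DN. CD8-lineage markers summed to 647 to 1105 CPM in DN1, against 220 to 375 in total DN. B-cell markers summed to 502 to 1164 CPM, against 23.9 to 219. These values go against a population without CD4 and CD8, so DN1 stands here for the label only.

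**Figure D1:**
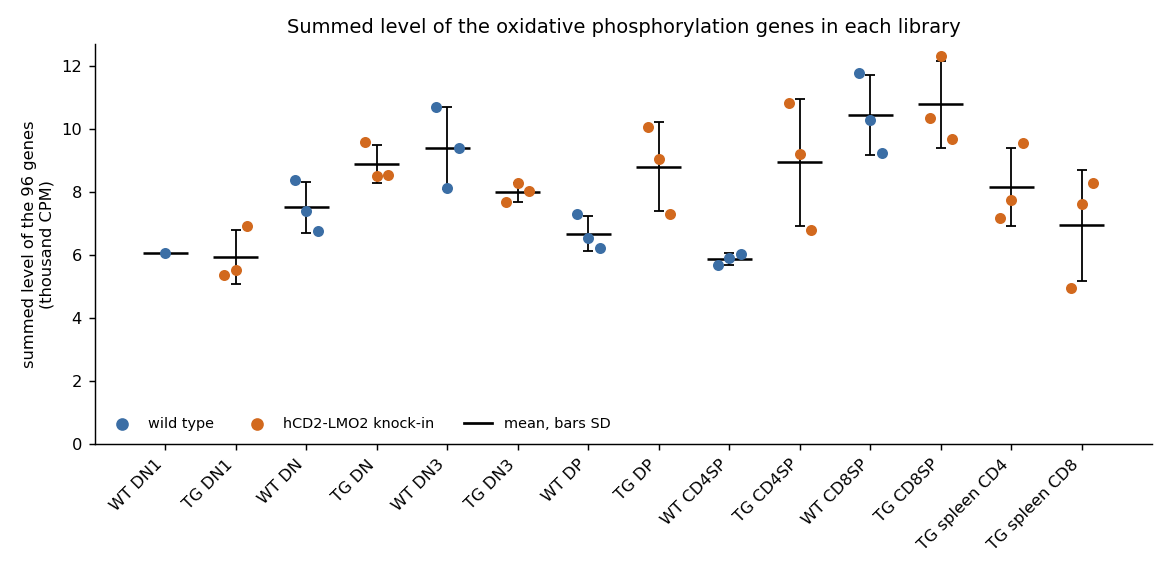
Summed CPM of the 96 members in each of the 40 libraries, by cell population and genotype, with the mean and SD of each group. Wild-type DN3 and CD8SP stand above wild-type DP and CD4SP, while transgenic DP and CD4SP are spread widely.

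Compared per length, in the FPKM values that the authors deposited, the subunits of one complex differed widely from each other. Atp5b, the catalytic beta subunit of the ATP synthase, had the highest level, with a mean over the 14 groups of 639.6 FPKM and group means of 397 to 917. Cox6a1, a subunit of complex IV, followed with 501 FPKM and Atp5g2, one of the c-subunit genes of the ATP synthase ring, with 427. Ndufs1, the largest iron-sulphur subunit of complex I, had 27.1 FPKM. The complex I assembly factors ranged from 5.57 FPKM for Ndufaf6 to 29 for Ndufaf8. In wild-type DN3 the median over subunits was 97.7 FPKM for complex I, 102 for complex II, 189 for complex III, 324 for complex IV and 309.9 for complex V. In wild-type DP the same medians were 57.0, 70.6, 96.6, 164 and 177 FPKM, so complexes IV and V had the highest medians in both populations.

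Most isoforms of other tissues were at or near zero, with Cox6a2 and the testis isoform Cox6b2 as exceptions. Cox8c, the testis isoform of a complex IV subunit, had 1 read over all 40 libraries, Cox7b2 had 2, Cox8b, the muscle isoform, had 5 and Ndufa4l2, a relative of Ndufa4 known from hypoxic cells, had 41. Cox4i2 and Cox7a1 had 249 and 278 reads, and the near-identical copies Ndufa11b and Ndufb4b had 21 and 69. Reads of such copies may be split between them and the parent genes by the counting. These genes are why 88 to 92 of the 96 members, and not all, passed the filter on low counts in the comparisons. Cox6b2 had 5062 reads, and its levels are given with the comparisons. Cox6a2 had 3080 reads, with 10.6, 19.9 and 14.5 CPM in transgenic DN1, 11.3 in the wild-type DN1 library and 9.99, 10.2 and 3.51 in splenic CD4 cells. In wild-type DN3 it read 0.896, 0.364 and 0.809 CPM, and in wild-type CD4SP 0.418, 0.273 and 0.255, below every DN1 and splenic library. Cox6a2 made up 7.42% ± 2.49 (SD, n = 3) of the summed Cox6a1 and Cox6a2 FPKM in transgenic DN1, so Cox6a1 remained the main gene there. In the CD4SP comparison of the genotypes Cox6a2 read 4.61, 0.449 and 7.18 CPM in the transgenic libraries, all above the wild-type ones, and rose by 3.70 ± 0.99 (edgeR adjusted p = 0.0356). The second of these libraries lay near the wild-type level.

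Across the 40 libraries the levels of most members varied together. Over the 86 members with a mean CPM of at least 5, the Spearman correlation of a member with the mean of the others had a median of 0.831, and 68 members were above 0.7. The points are libraries that share stages, genotypes and depth, so this is a description only. Atp5c1, the gamma subunit of the ATP synthase stalk, followed the others most closely (0.980). Cox7a2l, listed here among the assembly factors, followed them least (0.173), and the complex I assembly factor Ndufaf4 was next (0.223).

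**Figure D2:**
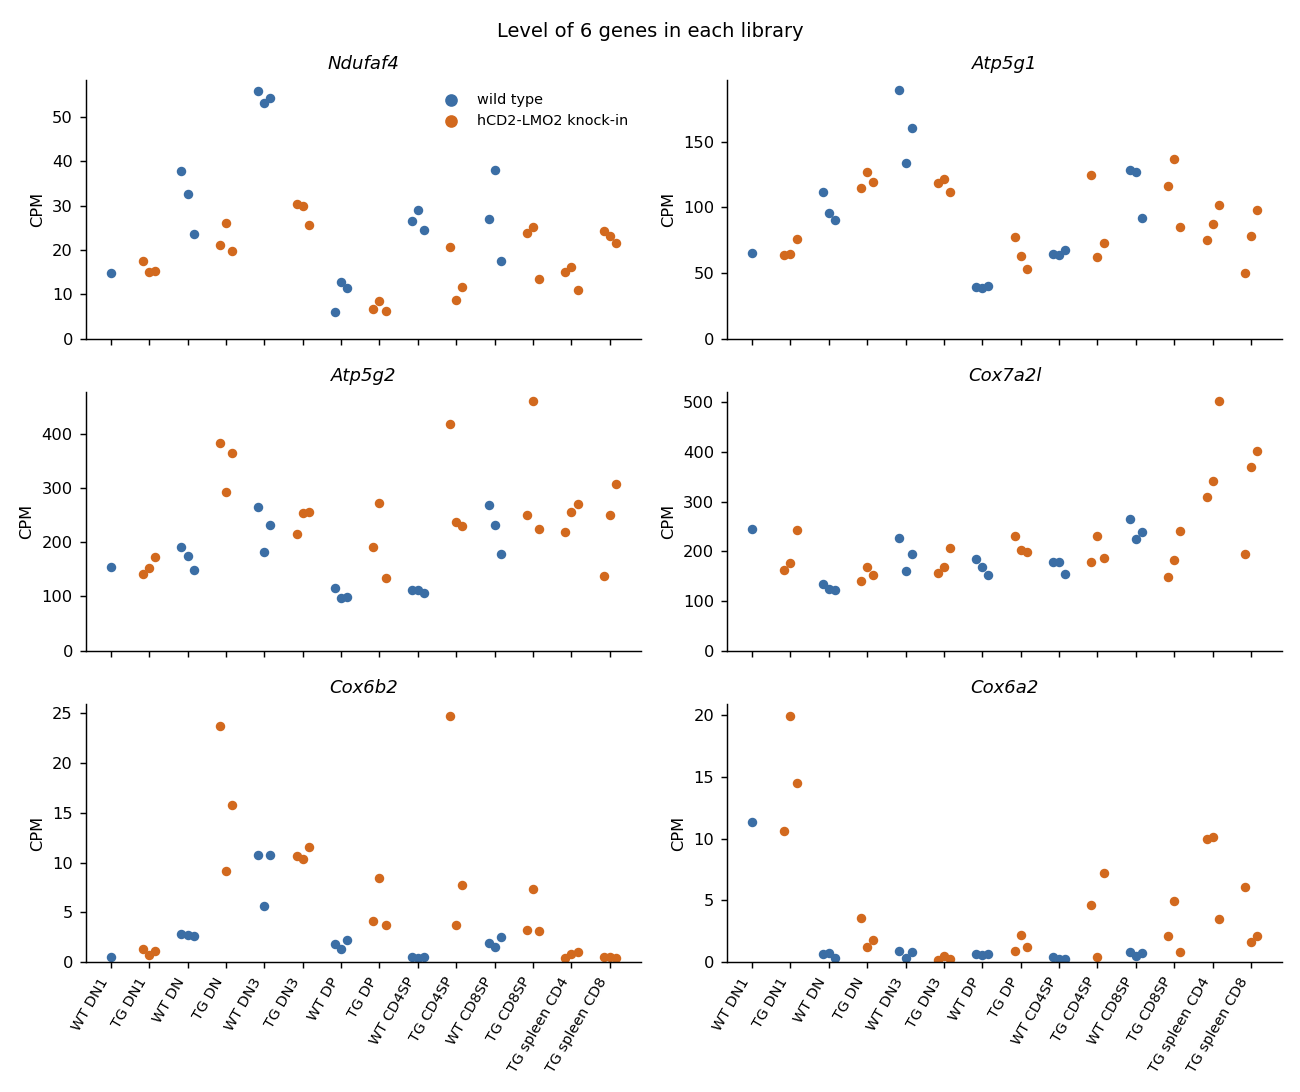
CPM of Ndufaf4, Atp5g1, Atp5g2, Cox7a2l, Cox6b2 and Cox6a2 in each library by population and genotype; each panel has its own axis. By group mean, Ndufaf4 is highest in wild-type DN3, Cox7a2l in splenic CD4 and CD8 cells, and Cox6a2 in DN1. For Cox7a2l the splenic CD8 libraries overlap those of transgenic CD8SP.

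Between the wild-type DN3 and DP stages the members fell broadly. Of 89 members tested, 63 were lower in DP and 0 higher, beside 31.4% of all genes tested that were lower and 28.6% that were higher (60% in either direction). The median log2 fold change of the tested members was -0.68, against -0.018 over all genes. By complex, 31 of 45 members of complex I fell, 3 of 4 of complex II, 4 of 8 of complex III, 11 of 15 of complex IV and 14 of 17 of complex V. The summed CPM of all members was 10701, 8122 and 9398 in wild-type DN3 and 7306, 6541 and 6217 in wild-type DP, so the summed levels did not overlap.

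The 2 largest falls were in assembly factors of complex I, of which 7 of 8 fell. Ndufaf4 read 56.0, 53.1 and 54.3 CPM in wild-type DN3 and 6.10, 12.7 and 11.5 in wild-type DP. Every DN3 library was above every DP library, and the gene fell by 2.45 ± 0.24 (edgeR adjusted p = 3.36e-05). Ndufaf6 read 12.3, 8.47 and 9.78 CPM in DN3 and 1.32, 2.18 and 2.25 in DP, again without overlap, and fell by 2.42 ± 0.25 (edgeR adjusted p = 5.43e-05). Ndufaf2, the paralogue of subunit Ndufa12 that acts late in assembly, fell by 1.44 ± 0.25 (edgeR adjusted p = 0.000995). Of the c-subunit genes of the ATP synthase, Atp5g1 read 189.7, 134 and 161 CPM in DN3 and 39.2, 38.8 and 40.3 in DP. The DP libraries were tightly grouped and all lower, and the gene fell by 2.05 ± 0.17 (edgeR adjusted p = 1.16e-05). Atp5g2 fell by 1.13 ± 0.18 (edgeR adjusted p = 0.000652) and Atp5g3 fell by 0.61 ± 0.21 (edgeR adjusted p = 0.0281). Cox6b2, the testis isoform of a complex IV subunit, read 10.8, 5.64 and 10.8 CPM in DN3 and 1.80, 1.31 and 2.29 in DP, with all DP libraries lower, and fell by 2.35 ± 0.32 (edgeR adjusted p = 0.000263).

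A list of 14 main subunits, chosen by hand, was followed in every comparison. It includes Ndufs1, Ndufv1, Sdha, Sdhb, Uqcrc1, Cox4i1, Cox5a, Cox5b, Atp5a1, Atp5b and Atp5c1. Some of the list, such as Cox4i1, Cox5a and Cox5b, are not core subunits, while core subunits such as Ndufs7 and the c-subunit genes are left out. Of the 14, 6 fell in DP and 0 rose: Ndufv1, which binds NADH, by 0.71, the iron-sulphur subunit Sdhb of complex II by 0.76, Cox5a by 0.94, Cox5b by 0.74, Atp5b by 0.46 and Atp5c1 by 0.56 on the log2 scale. The flavoprotein Sdha had a log2 fold change of -0.060 ± 0.17 (edgeR adjusted p = 0.774), and Atp5a1, the alpha subunit of the ATP synthase, -0.060 ± 0.18 (edgeR adjusted p = 0.788). Ndufs1, at -0.34 ± 0.13 (edgeR adjusted p = 0.0552), and Uqcrc1, at -0.24 ± 0.23 (edgeR adjusted p = 0.399), did not pass the test either. Ndufa4, now counted as a subunit of complex IV, fell by 0.92 ± 0.20 (edgeR adjusted p = 0.00320).

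Other mitochondrial lists, chosen with earlier results of these data known, moved over the same step. Of the proteins of the mitochondrial ribosome, 63 of 78 fell and 0 rose (median -0.82), and of the respiratory assembly factors outside the 96 members 20 of 40 fell and 0 rose. Among the electron carriers 13 of 16 fell and 1 rose, with cytochrome c (Cycs) at -1.31 and cytochrome c1 (Cyc1) at -0.56. Enzymes of the TCA cycle and pyruvate dehydrogenase were mixed, with 7 lower and 3 higher of 23. All 78 of the cytosolic ribosomal proteins tested fell (median -1.34). Of the regulators, Myc read 24.6 CPM in DP against 394 in DN3 and fell by 4.02 ± 0.15 (edgeR adjusted p = 3.62e-07). Nrf1, which encodes nuclear respiratory factor 1, rose by 0.79 ± 0.19 (edgeR adjusted p = 0.00532) and Gabpa rose by 0.54 ± 0.20 (edgeR adjusted p = 0.0397). Short transcripts are given beside this, with a length implied by the deposited counts and FPKM. Over the 244 other genes with an implied length of at most 544 bases, which is the median length of the members, the median log2 fold change was -0.81 and 57.0% fell. The part of transcript length in the members' result was not tested. With libraries scaled by their totals alone, the median of all genes shifted by -0.17 and that of the members was -0.85.

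From DP to the single-positive stages, 16 of 88 members were called in the CD4 lineage and 58 of 88 in the CD8 lineage. Both comparisons share the wild-type DP libraries as reference, so their values are set side by side. In CD4SP, 4 of 88 members rose and 12 fell, beside 23.4% and 20.5% of all genes (43.9% in either direction), with a median of -0.15 against -0.0056 for all genes. In CD8SP, 58 of 88 members rose and 0 fell, beside 20.8% and 16.9% of all genes (37.7% in either direction), with a median of 0.60 against -0.027. The summed CPM of the members was 5879 ± 187 in wild-type CD4SP and 10445 ± 1275 in wild-type CD8SP (SD, n = 3 each). The difference between the lineages itself was not tested.

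The members that rose in CD4SP were 3 assembly factors, Ndufaf4, Ndufaf5 and Ndufaf6, and the c-subunit gene Atp5g1. Ndufaf4 read 26.5, 29.1 and 24.5 CPM in CD4SP, above all DP libraries and below all DN3 libraries, and rose by 1.42 ± 0.25 (edgeR adjusted p = 0.00358) against DP. Atp5g1 read 64.2, 63.4 and 67.2 CPM, also above every DP library, and rose by 0.74 ± 0.095 (edgeR adjusted p = 0.000754). Of the 12 members that fell, Ndufaf3 is an assembly factor and Cox6b2 an isoform gene. Cox6b2 read 0.494, 0.468 and 0.553 CPM in CD4SP, below every DP library, and fell by 1.81 ± 0.31 (edgeR adjusted p = 0.00302). Ndufs5, in the membrane arm of complex I, read 15.7, 17.9 and 18.1 CPM against 30.1, 32.2 and 27.8 in DP and fell by 0.78 ± 0.12 (edgeR adjusted p = 0.00157). Atp5h, subunit d of the stator stalk of the ATP synthase, read 106, 109.6 and 104 CPM against 172, 194 and 182 and fell by 0.76 ± 0.11 (edgeR adjusted p = 0.00115). For both genes all CD4SP libraries were lower. All 27 cell-cycle genes tested fell from DP to CD4SP, and 61 of 77 cytosolic ribosomal genes rose. Without wild-type CD4SP 1 the number of called members was 8, and without wild-type CD4SP 2 it was 6, with the share of all genes not given.

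In CD8SP the rise ran through every complex: 27 of 45 members of complex I, 3 of 4 of complex II, 6 of 8 of complex III, 10 of 14 of complex IV and 12 of 17 of complex V. Atp5g1 read 128, 127 and 92.2 CPM against 39.2, 38.8 and 40.3 in DP, with no overlap, and rose by 1.5 ± 0.16 (edgeR adjusted p = 0.000740). Cox7b, a small subunit of complex IV, read 101, 101 and 69.5 CPM against 30.1, 46.0 and 43.9. The CD8SP libraries were all higher, and the gene rose by 1.13 ± 0.21 (edgeR adjusted p = 0.00615). Ndufa12, a complex I subunit of the peripheral arm, read 62.1, 56.3 and 40.5 CPM against 26.1, 21.9 and 23.4, again without overlap, and rose by 1.10 ± 0.18 (edgeR adjusted p = 0.00387). Ndufaf4 rose by 1.39 ± 0.34 (edgeR adjusted p = 0.0160) and Ndufaf2 rose by 1.18 ± 0.32 (edgeR adjusted p = 0.0241). Of the 14 listed subunits 8 rose, among them Cox5a by 0.94 and Atp5b by 0.69.

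The companion lists moved with them: 52 of 78 mitochondrial ribosomal genes rose, 15 of 40 further assembly factors, 10 of 16 electron carriers and all 77 cytosolic ribosomal genes tested. Myc read 179.5 CPM in CD8SP against 24.6 in DP and rose by 2.81 ± 0.21 (edgeR adjusted p = 0.000225). Other genes as short as the lower part of the members had a median of 0.78, and 56.6% of them rose. Mature T-cell markers summed to 703 to 1033 CPM in wild-type CD8SP, 1221 to 1452 in CD4SP and 227 to 323 in DP. The part of these markers in the result was not tested. Wild-type CD8SP 3 carried DP markers at 7736 CPM and CD4-lineage markers at 857, against 3926 and 3455, and 96.8 and 31.9, in the other 2 libraries. Without it 63 members were called. The count was 24 without wild-type CD8SP 1, 30 without wild-type CD8SP 2, 36 without wild-type DP 2 and 28 without wild-type DP 3. The share of all genes called in these fits is not given, so the counts do not show whether the members moved apart from all genes.

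**Figure D3:**
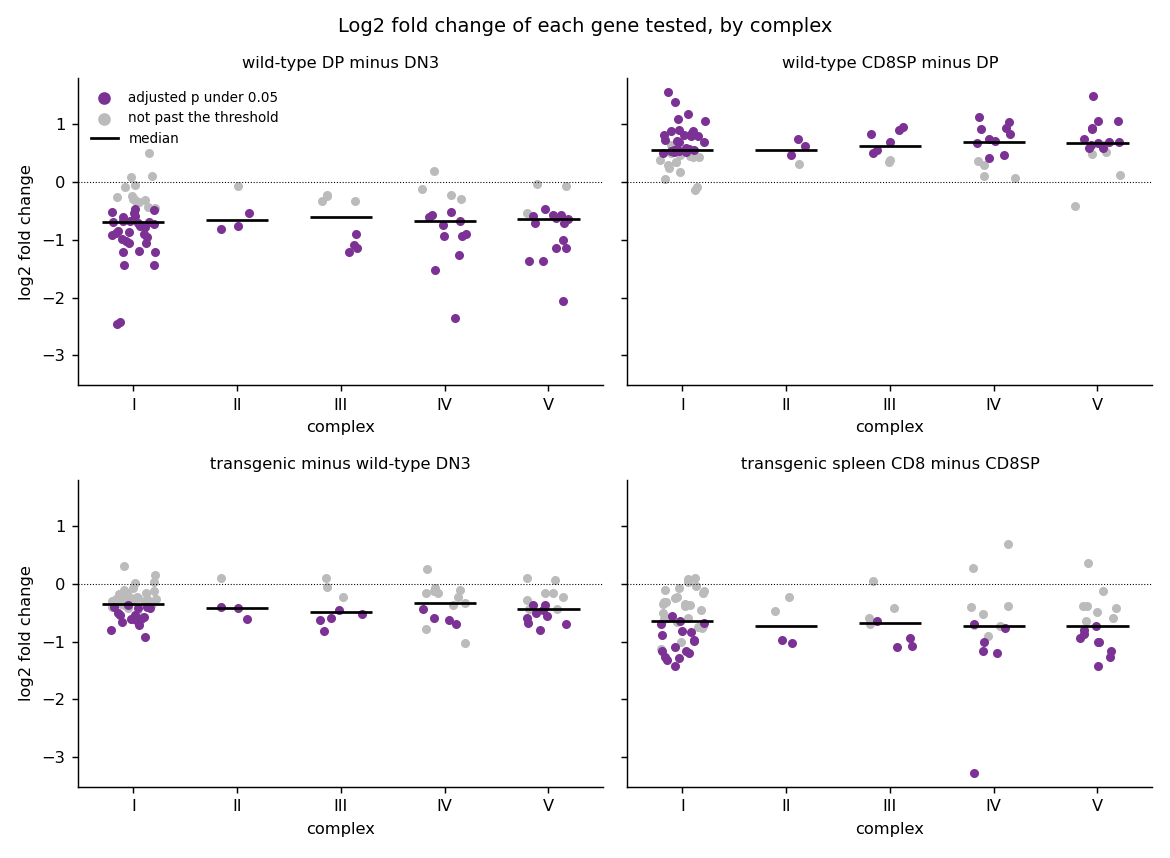
Log2 fold change of every tested member by complex in 4 comparisons: wild-type DP against DN3, wild-type CD8SP against DP, transgenic against wild-type DN3, and transgenic splenic CD8 against CD8SP cells. Purple points passed the test and grey points did not, and bars mark the medians; called members lie above zero in the comparison of CD8SP with DP and below zero in the others.

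The comparison of transgenic with wild-type cells at one stage asks what differs when LMO2 is kept on. In DN3, 38 of 89 members were lower in transgenic cells and 0 higher, beside 22.2% of all genes that were lower and 23.4% that were higher (45.7% in either direction). The members' median was -0.37, against -0.028 for all genes. The falls came from complex I (17 of 45), complex II (3 of 4), complex III (5 of 8), complex IV (4 of 15) and complex V (9 of 17). The summed CPM of the members was 10701, 8122 and 9398 in wild-type DN3 and 7684, 8293 and 8032 in transgenic DN3, so the sums overlapped in 1 pair of libraries.

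Ndufaf4 had the largest fall of the called members. It read 56.0, 53.1 and 54.3 CPM in wild-type DN3 and 30.3, 30.0 and 25.7 in transgenic DN3. No transgenic library reached the lowest wild-type library, and the gene fell by 0.93 ± 0.11 (edgeR adjusted p = 0.000247). Uqcr11, a small subunit of complex III, read 79.9, 44.4 and 61.5 CPM in wild-type and 35.4, 33.8 and 36.3 in transgenic cells. The wild-type libraries were spread widely and the transgenic ones closely, and the gene fell by 0.82 ± 0.19 (edgeR adjusted p = 0.00759). Atp5l, subunit g of the membrane part of the ATP synthase, read 169, 114 and 143 CPM against 78.7, 83.3 and 81.6. The groups did not overlap, and it fell by 0.80 ± 0.14 (edgeR adjusted p = 0.00193). Ndufa5, in the quinone module of complex I, fell by 0.79 ± 0.16 (edgeR adjusted p = 0.00452), and Ndufaf2 fell by 0.71 ± 0.20 (edgeR adjusted p = 0.0172). The subunit Ndufa4 fell by 0.69 ± 0.13 (edgeR adjusted p = 0.00269) and Cox7a2 fell by 0.62 ± 0.16 (edgeR adjusted p = 0.0138).

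Of the 14 listed subunits 1 fell in transgenic DN3, Sdhb, with a change of -0.42 ± 0.12 (edgeR adjusted p = 0.0165). Ndufs1 stood at -0.12 ± 0.087 (edgeR adjusted p = 0.271), Sdha at 0.10 ± 0.093 (edgeR adjusted p = 0.398), Uqcrc1 at 0.11 ± 0.14 (edgeR adjusted p = 0.555) and Atp5a1 at 0.065 ± 0.096 (edgeR adjusted p = 0.605). These values lie on both sides of zero, and none of them passed the test. Among the c-subunit genes Atp5g1 fell by 0.46 ± 0.13 (edgeR adjusted p = 0.0186). Atp5g2 read 265, 182 and 231 CPM in wild-type and 216, 254 and 256 in transgenic DN3, overlapping groups, with a log2 fold change of 0.10 ± 0.14 (edgeR adjusted p = 0.593).

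In the companion lists of DN3, 38 of 78 mitochondrial ribosomal genes fell and 0 rose (median -0.38), among them Mrps33 by 0.89 and Mrps6 by 0.95. Of the further assembly factors 11 fell and 3 rose of 40. Timmdc1, for the membrane arm of complex I, fell by 0.70 ± 0.11 (edgeR adjusted p = 0.00130), and Lrpprc, which stabilises mitochondrial mRNA, rose by 0.58 ± 0.14 (edgeR adjusted p = 0.00795). Cycs fell by 0.81 ± 0.13 (edgeR adjusted p = 0.00129). Of the glycolysis genes 6 of 18 rose and 2 fell, beside 23.4% and 22.2% of all genes: the hexokinase gene Hk1 read 301 CPM against 117 and rose by 1.37 ± 0.13 (edgeR adjusted p = 0.000107), and the glucose transporter gene Slc2a3 rose by 1.34 ± 0.15 (edgeR adjusted p = 0.000176). Of the regulators, Polg, the mitochondrial DNA polymerase, rose by 1.20 ± 0.11 (edgeR adjusted p = 6.44e-05). Nrf1 stood at 0.039 ± 0.099 (edgeR adjusted p = 0.767), Gabpa at 0.062 ± 0.13 (edgeR adjusted p = 0.728), Tfam at -0.25 ± 0.10 (edgeR adjusted p = 0.0812) and Myc at -0.15 ± 0.094 (edgeR adjusted p = 0.216), and none of these 4 passed the test. Of the cell-cycle genes 1 of 27 fell (Tyms) and 0 rose.

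Markers of other cells differed between the same groups. The mast-cell markers Cpa3, Kit and Hdc, all 3 in the table, summed to 715 to 1209 CPM in transgenic and 71.3 to 124 in wild-type DN3, of which Hdc, the histamine-forming enzyme, was at 0.514, 0.827 and 0.646 CPM in transgenic DN3. The mature T-cell markers summed to 1213 to 1434 against 455 to 551 CPM and the thymic epithelial markers to 10.2 to 22.4 against 49.8 to 56.5. CD8-lineage markers summed to 235 to 318 CPM in transgenic against 70.9 to 78.1 in wild-type DN3, and DP markers to 247 to 609 against 679.9 to 938. DN3 markers overlapped, at 1944 to 2031 and 1840.3 to 2191 CPM. The 253 other genes with an implied length of at most 544 bases had a median of -0.28, with 27.7% lower, and the part of these markers and of length in the result was not tested. The count of called members was 14 without transgenic DN3 1 and 61 without wild-type DN3 2. It was 19 without wild-type DN3 1 or without wild-type DN3 3, and 1 fit of all 40 libraries called 6. The share of all genes called in these fits is not given, so the counts do not show whether the members moved apart from all genes. Scaling by library totals shifted the median of all genes by -0.13 and gave 2217 higher and 3726 lower genes in place of 2822 and 2675, with 55 members lower and 0 higher.

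In total DN cells few members were called. Of 88 tested, 6 were higher in transgenic DN and 0 lower, beside 7.47% and 4.89% of all genes (12.4% in either direction), with a median of 0.23 against -0.013 for all genes. The share of members called higher was thus close to that of all genes called higher. Cox6b2 read 2.88, 2.71 and 2.67 CPM in wild-type and 23.6, 9.15 and 15.7 in transgenic DN. All transgenic libraries were higher, and the gene rose by 2.50 ± 0.35 (edgeR adjusted p = 0.00740). Ndufa6, a complex I subunit that carries an acyl carrier protein, read 33.4, 32.4 and 32 CPM against 71.7, 53.3 and 76.4, with no overlap, and rose by 1.0 ± 0.17 (edgeR adjusted p = 0.0127). Atp5g2 read 190.1, 175 and 149 CPM against 383, 292 and 364. Each transgenic library was above each wild-type library, and it rose by 0.97 ± 0.17 (edgeR adjusted p = 0.0139). Ndufb9 rose by 0.92 ± 0.18 (edgeR adjusted p = 0.0194) and Ndufa11, in the membrane arm, rose by 0.86 ± 0.18 (edgeR adjusted p = 0.0241); Ndufs7, which holds an iron-sulphur centre, completed the 6.

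Among the 14 listed subunits 0 passed edgeR's test in total DN, while Ndufs7 and Atp5g2, core subunits outside that list, did. An unadjusted p under 0.05 was found for 31 of the 88 members, and the share of all genes at that threshold was not counted. Of the mitochondrial ribosomal genes 1 of 78 rose. Mast-cell markers summed to 421 to 2067 CPM in transgenic and 71.3 to 77.8 in wild-type DN, and red-cell genes to 47.8 to 2661 and 1507 to 22003, with the highest value in wild-type DN 3. Their part in the result was not tested. The number of called members was 18 without transgenic DN 2, 2 without transgenic DN 3, 2 without wild-type DN 1, 1 without wild-type DN 2 and 4 without wild-type DN 3, and without the last of these the members' median was 0.084. For these fits the share of all genes called is not given.

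In DP, 0 of 89 members passed edgeR's quasi-likelihood test, beside 0% of all genes, while 32 members had an unadjusted p under 0.05. DESeq2 called 3. The median was 0.40 against 0.028 for all genes. Atp5g1 read 39.2, 38.8 and 40.3 CPM in wild-type and 77.7, 63.0 and 52.8 in transgenic DP, with no overlap. The lowest transgenic value was that of the library labelled transgenic DP 3, in which Lmo2 was near the wild-type level. Without that library 13 members were higher and 0 lower, beside 7.6% of all genes called in either direction, and the members' median was 0.53. The other transgenic DP libraries also carried DN3 markers at 959 and 1013 CPM, against 169.7 in the library labelled transgenic DP 3 and 126 to 141 in wild-type DP, whose part was not tested.

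In CD4SP, 25 of 88 members were higher in transgenic cells and 0 lower, beside 15% and 11% of all genes (25.9% in either direction), with a median of 0.61 against 0.054. The rise included 13 of 45 members of complex I, 2 of 8 of complex III, 7 of 14 of complex IV and 3 of 17 of complex V, and 0 of 4 of complex II. Cox6b2 read 0.494, 0.468 and 0.553 CPM in wild-type and 24.7, 3.70 and 7.75 in transgenic CD4SP. The groups did not overlap, though the transgenic libraries ranged widely, and the gene rose by 4.58 ± 0.77 (edgeR adjusted p = 0.0113). Ndufa6 read 29.8, 30.9 and 26.9 CPM against 124, 67.9 and 54.6, with all transgenic libraries higher, and rose by 1.5 ± 0.30 (edgeR adjusted p = 0.0166). Atp5g2 read 112, 112 and 105 CPM against 418, 236 and 229 and rose by 1.44 ± 0.26 (edgeR adjusted p = 0.0130). For each of these genes the highest value was in the library labelled transgenic CD4SP 1, whose nearest library was transgenic DN 1 (r = 0.973 over log expression). Mast-cell markers summed to 2007, 11.4 and 359 CPM in transgenic and 5.53 to 7.49 in wild-type CD4SP, and DN3 markers to 585 to 904 against 166 to 199. Their part in the result was not tested. Ndufb9 rose by 1.4 ± 0.28 (edgeR adjusted p = 0.0168) and Ndufa11 rose by 1.27 ± 0.21 (edgeR adjusted p = 0.0108).

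All 27 cell-cycle genes tested were higher in transgenic CD4SP (median 2.09), as were 13 of 78 mitochondrial ribosomal genes, with 2 lower, and 5 of 18 genes of glycolysis. Without the libraries labelled transgenic CD4SP 1 and 2, which went against their labels, a single transgenic library was left. That library, labelled transgenic CD4SP 3, was itself most like transgenic DN 3 (r = 0.930 over log expression). Its DP markers summed to 5276 CPM, against 1578 to 2603 in wild-type CD4SP, and its CD4-lineage markers to 1439, against 1908 to 2438. A fit with this library alone takes the spread from the wild-type libraries. In that fit 16 members were higher and 2 lower, beside 36.0% of all genes called in either direction, and the members' median was 0.088. Cox6b2, Ndufa6 and Atp5g2 had log2 fold changes of 3.94, 0.92 and 1.08 in it. No member was called without wild-type CD4SP 1 or without wild-type CD4SP 2, 6 were without wild-type CD4SP 3, and 48 were without transgenic CD4SP 3. For these 4 counts the share of all genes called is not given, so they do not show whether the members moved apart from all genes.

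In CD8SP, 0 of 89 members passed edgeR's test and 2 had an unadjusted p under 0.05, beside 4.45% of all genes (2.09% higher, 2.36% lower) called. DESeq2 called 0, and edgeR called 0 without the library labelled transgenic CD8SP 3. The median was -0.014 for the members and 0.0047 for all genes. Atp5g2 ranged from 179 to 268 CPM in wild-type and from 224 to 459 in transgenic CD8SP, overlapping groups. In DN1, with 1 wild-type library, 0 of 92 members were called by edgeR or DESeq2 and 0 had an unadjusted p under 0.05, beside 0% of all genes, and the median was -0.018. There Ndufaf4 read 14.7 CPM in the wild-type library and 17.4, 15.1 and 15.2 in the transgenic ones.

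**Figure D4:**
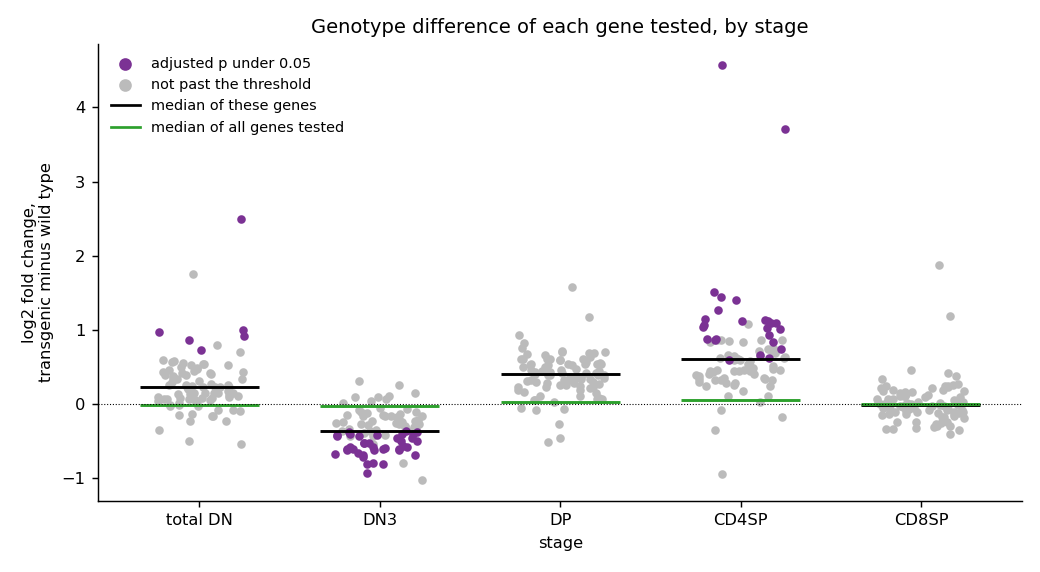
Log2 fold change of the members, transgenic over wild type, at each stage that had 3 libraries per genotype; each point is a member, purple points passed the test, and bars mark the medians of the members (black) and of all genes (green). The medians are -0.37 in DN3, 0.23 in total DN, 0.40 in DP, 0.61 in CD4SP and -0.01 in CD8SP.

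The difference of the genotype effect between DN3 and DP was tested with an interaction term over 12 libraries. It was more negative in DN3 for 23 of 90 members and less negative for 0, beside 4.88% and 5.29% of all genes (10.2% in either direction), with a median of -0.77 against -0.047. For Uqcrq, a small subunit of complex III, wild-type and transgenic DN3 read 95.6, 55.6 and 72.7 and 48.2, 54.9 and 52.3 CPM. In DP they read 39.5, 31.5 and 31.2 and 65.6, 59.1 and 41.4. Transgenic libraries were thus lower in DN3 and higher in DP, and the difference of the 2 effects was -1.25 ± 0.30 (edgeR adjusted p = 0.0271). Atp5g1 had a difference of -1.19 ± 0.23 (edgeR adjusted p = 0.00978). The count rests on single libraries: it was 1 without any of transgenic DN3 1, transgenic DN3 3, wild-type DN3 1 or wild-type DN3 3, 4 without transgenic DN3 2 or wild-type DP 2, 3 without transgenic DP 1, 15 without transgenic DP 2, 2 without wild-type DP 3, 52 without wild-type DN3 2 and 63 without the library labelled transgenic DP 3. The share of all genes called in these fits is not given, so the counts do not show whether the members moved apart from all genes. With library totals as the scale, 43 members and, of all genes, 548 higher and 996 lower passed, in place of 659 and 607. Other short genes had a median of -0.75, and their part was not tested.

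In mice with the LMO2 allele, splenic T cells were compared with the thymic cells of the same lineage. In splenic CD8 cells 38 of 88 members were lower than in CD8SP and 0 higher, beside 20.1% and 17.2% of all genes (37.3% in either direction), with a median of -0.68 against -0.027. Complex I gave 17 of 45, complex II 2 of 4, complex III 4 of 8, complex IV 6 of 14 and complex V 9 of 17. Ndufa12 read 18.1, 26.9 and 26.4 CPM in splenic CD8 cells and 63.5, 72.4 and 47.8 in CD8SP. The groups did not overlap, and the gene fell by 1.43 ± 0.24 (edgeR adjusted p = 0.00645). Atp5g3 read 54.6, 93.0 and 97.4 CPM in spleen and 224, 240.0 and 164 in thymus, again apart, and fell by 1.42 ± 0.28 (edgeR adjusted p = 0.00992). Ndufc2, in the membrane arm of complex I, read 30.7, 30.5 and 30.7 CPM against 69.6, 85.6 and 64.3. Its splenic libraries were nearly equal and all lower, and it fell by 1.32 ± 0.17 (edgeR adjusted p = 0.00276).

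Of the 14 listed subunits 5 fell in splenic CD8 cells, among them Atp5b, which fell by 1.16 ± 0.29 (edgeR adjusted p = 0.0231), and Sdhb, which fell by 1.03 ± 0.21 (edgeR adjusted p = 0.0116). Cox7a2l read 194, 369 and 402 CPM in spleen and 149, 182 and 241 in thymus, overlapping groups, with a log2 fold change of 0.69 ± 0.33 (edgeR adjusted p = 0.148). All 27 cell-cycle genes fell (median -3.90), and so did 28 of 78 mitochondrial ribosomal genes, while 13 of 78 cytosolic ribosomal genes rose and 2 fell. Among the regulators Nrf1 fell by 1.09 ± 0.16 (edgeR adjusted p = 0.00366) and Hcfc1 fell by 1.28 ± 0.19 (edgeR adjusted p = 0.00444), and Esrra rose by 0.75 ± 0.22 (edgeR adjusted p = 0.0390). B-cell markers summed to 415 to 2919 CPM in the splenic CD8 libraries against 8.25 to 25.4 in CD8SP, and macrophage and granulocyte markers to 85.0 to 2778 against 5.35 to 20.7, and their part was not tested. Without the library labelled transgenic splenic CD8 1, in which B-cell markers summed to 2919 CPM, 40 members were lower and 1 higher, beside 43.4% of all genes called. The count was 17 without transgenic CD8SP 1, 13 without CD8SP 2, 28 without the library labelled transgenic CD8SP 3, 17 without splenic CD8 2 and 20 without splenic CD8 3. Beside these counts the share of all genes called is not given, so they do not show whether the members moved apart from all genes.

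In splenic CD4 cells against CD4SP 1 of 88 members rose and 1 fell, beside 12.5% and 12% of all genes (24.5% in either direction). Cox7a2l read 309.9, 341 and 503 CPM in spleen and 178, 230.2 and 186 in thymus, without overlap, and rose by 0.93 ± 0.24 (edgeR adjusted p = 0.0353). Cox6b2 read 0.480, 0.834 and 1.0 CPM against 24.7, 3.70 and 7.75, all lower, and fell by 4.0 ± 0.84 (edgeR adjusted p = 0.0204). Neither call held without the libraries labelled transgenic CD4SP 1 and 2, where 0 members passed edgeR's test, or without any single splenic CD4 library. Between splenic CD8 and splenic CD4 cells 0 of 88 members passed, beside 0.491% of all genes (0.105% higher, 0.386% lower), with 3 at an unadjusted p under 0.05 and 0 in DESeq2. Without splenic CD8 1 and splenic CD4 3 the count was 9, with 7 higher and 2 lower, beside 36.4% of all genes.

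Atp5g1, Atp5g2 and Atp5g3 encode the same mature c subunit of the ATP synthase ring behind different import signals, so their mix can be read per length. These shares were chosen after the values were seen and are given without a test, and reads shared between the copies could blur them. Atp5g2 made up 45.8% ± 1.20 of the summed FPKM in wild-type DN, 44.6% ± 1.65 in DN3, 43.8% ± 1.45 in DP, 42.9% ± 2.15 in CD4SP and 45.8% ± 0.741 in CD8SP (SD, n = 3 each). The share was thus nearly level over the wild-type stages past DN1. In transgenic cells it was 59.5% ± 4.30 in DN, 54.0% ± 2.75 in DN3, 51.8% ± 6.35 in DP, 59.7% ± 1.65 in CD4SP and 52.5% ± 6.42 in CD8SP. The transgenic DN3 libraries ranged from 52.4% to 57.2% and the wild-type ones from 43.2% to 46.4%, without overlap. In CD8SP the ranges were 46.5% to 59.3% and 45.3% to 46.7%, which overlapped. Library by library the Atp5g2 share was 46.9%, 59% and 49.6% in transgenic DP, with the library labelled transgenic DP 3 last. In transgenic CD4SP it was 61.5%, 58.3% and 59.2%. In wild-type DN it was 45.7%, 47.1% and 44.7%. In DN1 the share was 52.5% ± 1.08 in transgenic cells and 54.0% in the wild-type library.

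Atp5g1 changed its share with stage. It made up 24.6% ± 0.605 in wild-type DN3 and 12.8% ± 1.30 in wild-type DP, then 19.5% ± 0.256 in CD4SP and 18.1% ± 1.21 in CD8SP. DP was the lowest of these stages, and Atp5g3 took 43.4% ± 2.17 there. In splenic CD8 cells Atp5g2 reached 63.6% ± 2.21 and Atp5g3 20.2% ± 1.70, and in splenic CD4 cells Atp5g2 made up 61.0% ± 1.33. The single libraries had Atp5g2 shares of 61.2%, 63.9% and 65.6% in splenic CD8 and 61.2%, 62.1% and 59.5% in splenic CD4 cells. Cox6b2 had 7.30% ± 1.29 of the summed Cox6b1 and Cox6b2 FPKM in wild-type DN3 and 11.1% ± 0.831 in transgenic DN3. It had 14% ± 4.56 in transgenic and 3.93% ± 0.688 in wild-type DN, where the single libraries had 3.48%, 3.58% and 4.72%, so Cox6b1 remained the main gene in each of these groups.

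**Figure D5:**
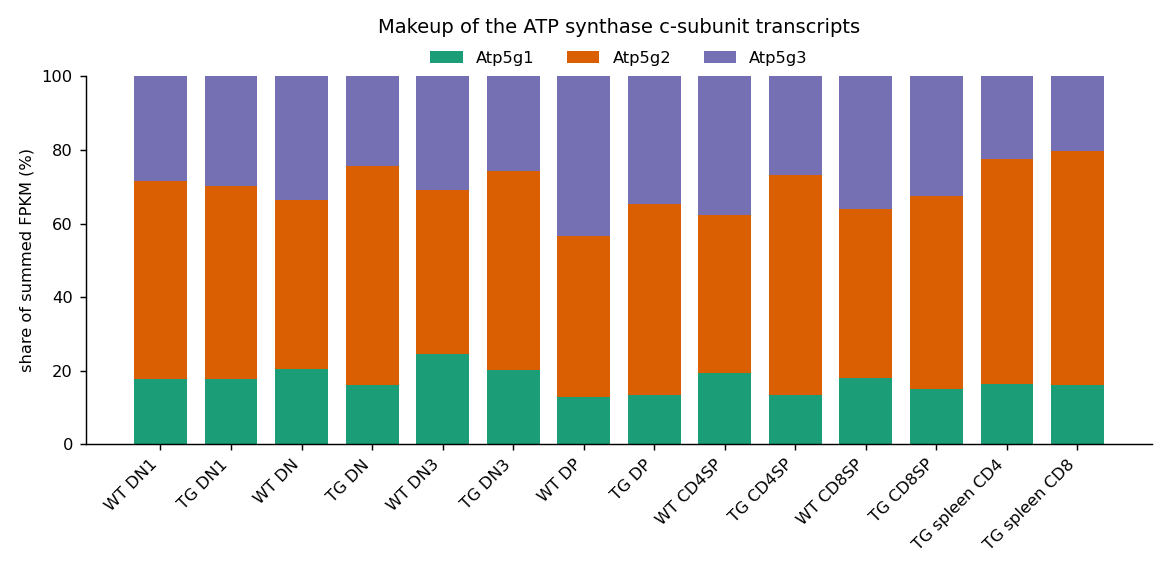
Share of Atp5g1, Atp5g2 and Atp5g3 in the summed FPKM of the 3 c-subunit genes, as stacked bars of the mean percentage in each group. The Atp5g2 share of the wild-type groups past DN1 lies between 42.9% and 45.8%, and Atp5g1 is highest in wild-type DN3.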

How the data were processed

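RNA read counts per gene, whole numbers as the authors deposited them, were used for all tests. The authors also deposited FPKM values of the same libraries, which were used only to set levels of different genes side by side. Per the submitters' processing notes, HISAT, Bowtie2, MACS2 and DESeq2 were used, with builds mm9 and mm10. For the counting tool and all versions, the sources used here give nothing. The table has 4 further columns of values that were not used, of which 2 are counts. The members and lists were chosen with earlier results of these data known.

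Counts were tested in edgeR 4.0.16 under R 4.3.3. The steps were filterByExpr with a minimum count of 10 and a minimum total of 15, TMM scaling, and the robust quasi-likelihood test, two-sided, with Benjamini-Hochberg adjustment over all genes tested and a threshold of 0.05. Each comparison used the libraries of its groups, except that DN1 used a fit of all 40 libraries. Fold changes carry a prior count of 0.125. The SE given with them is the absolute log2 fold change divided by the square root of the test's F statistic. With 3 against 3 libraries no exact test can go below 0.1. Counts differed beyond sampling noise in every pair of replicates. This cannot tell technical repeats, such as repeat preparations of 1 RNA sample, from separate animals. Members named in each comparison are the core subunits, the isoforms, and up to 5 called members per direction with the largest change, separate groups and a mean CPM of at least 5. From other lists, up to 3 genes per direction with the smallest adjusted p were named. Further genes named beside these, and the c-subunit shares, were chosen after their values were seen. Implied length is the ratio of deposited count and FPKM, added after seeing the data. Alternatives were other scalings, no filter, DESeq2 1.42.0, a replicate block, a term for the letter N that ends 12 column names, 1 fit of all libraries, and leaving out libraries. The tests were checked on simulated counts. Anti-LMO2 ChIP peaks were not analysed here. Some items are not reported here.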

Additional observations from a re-analysis of the deposited data

Results flagged for a closer look

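The genotype effect was more negative in DN3 than in DP for 23 of 90 members in the interaction test. Of all genes, 4.88% were more negative and 5.29% less negative. The largest differences of log2 fold change were -1.25 for Uqcrq, -1.23 for Uqcr11, -1.19 for Atp5g1, -1.19 for Ndufc1 and -1.18 for Atp5k, the last being subunit e of the ATP synthase. These results are listed because a test of the difference between the stages passed. The DP group includes the library labelled transgenic DP 3, without which 63 members passed. The share of all genes called in that fit is not given, so the 63 do not show whether the members moved apart from all genes.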

How the results depend on the processing

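Of 584 values of named members under the alternatives, 488 kept direction and call, 96 kept the direction without passing the threshold, and 0 reversed. These values cover only the called members picked for the largest changes in these same data, so a reversal was unlikely from the start. Listed subunits and isoforms that were not called are not among them. Counts of called members moved by over 1.5 times under these settings, and the cause was not tested. One fit of all libraries gave 6 in DN3, 1 in DP, 49 in CD4SP, 9 for wild-type CD4SP against DP and 10 for splenic CD4 against CD4SP. DESeq2 gave 17 in total DN, 3 in DP and 39 for the interaction, which was 13 with size factors, 43 with library totals and 14 without the filter. A term for the column suffix gave 62 for splenic CD8 against CD8SP. That term was fitted only for DP, CD8SP, the splenic comparisons and the interaction. It was not tried in total DN or CD4SP, where transgenic libraries 1 and 3 carried the suffix and no wild-type library did. Without 2 libraries together, an alternative chosen after seeing the data, splenic CD4 against CD4SP gave 0 and splenic CD8 against CD4 gave 9. With a replicate block, CD4SP gave 8, wild-type CD4SP against DP 7 and splenic CD4 against CD4SP 0, and no other count moved by over 1.5 times. The numbers are not said to pair libraries, and in no comparison were all 3 correlations of same-numbered libraries over 0.1. Leaving out 1 library gave 14 to 61 in DN3, 1 to 18 in total DN, 0 to 13 in DP, 0 to 48 in CD4SP, 0 in CD8SP and DN1, 47 to 74 for wild-type DP against DN3, 6 to 22 for CD4SP against DP, 24 to 75 for CD8SP against DP, 0 to 3 and 13 to 41 for splenic CD4 and CD8 against thymus, 0 between splenic CD8 and CD4, and 1 to 63 for the interaction. The share of all genes called is given above for only some of these fits. Elsewhere the counts alone do not show whether the members moved apart from all genes. Summed CPM was 8509 in wild-type DN with library totals, and 6333 and 6167 in wild-type DN1 with totals and size factors.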

Other observations

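Metabolic genes outside the 96 members, from lists chosen with earlier results known, also differed between the genotypes. Hk1, which phosphorylates glucose, read 485 CPM in transgenic and 132 in wild-type total DN and rose by 1.84 ± 0.32 (edgeR adjusted p = 0.0152). The lactate transporter gene Slc16a3 rose by 1.5 ± 0.39 (edgeR adjusted p = 0.0447) in the same cells.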
